A study of Mus musculus with 25 samples.

Results

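The subject here is the interaction between diet and genotype in mouse liver. It says how far the response to a high-fat diet (HFD) in livers labelled p53 knockout differed from that in control knockout livers. It was computed for each gene as the HFD effect in p53KO (HFD_p53KO minus Control_p53KO) minus the HFD effect in Rosa26KO (HFD_Rosa26KO minus Control_Rosa26KO), on the log2 scale. A positive value means that the expression difference between HFD and control diet was more positive in p53KO, and a value of 1 is a 2-fold difference between both responses. The contrast used all 25 of the 25 libraries, and every expressed gene entered it, 14133 of the 24537 genes in the table.

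Liver polyA RNA was sequenced from male C57BL6/J mice aged 24 months, in 4 groups. Control_Rosa26KO (n = 6) carried a knockout of the Rosa26 locus and ate control diet, and HFD_Rosa26KO (n = 6) carried the same knockout and ate HFD. Control_p53KO (n = 6) carried a p53 knockout on control diet, and HFD_p53KO (n = 7) carried it on HFD. Every group therefore carried a knockout, and no group of unmodified animals is part of the design. The labels do not say how, in which cells or at what age the knockouts were made, nor how long the diets were fed. They do not state that the libraries of a group came from separate animals, so the p-values measure the spread between these samples, which may be technical in part.

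p53, encoded by Trp53, is a transcription factor that responds to DNA damage and metabolic stress and switches on genes for cell cycle arrest, repair and cell death, Cdkn1a and its own inhibitor Mdm2 among them. Rosa26 is a locus commonly targeted as a neutral control. A liver fed a high-fat diet takes up dietary fat, stores it in lipid droplets and turns down the synthesis of fatty acids and cholesterol. An interaction asks whether the p53 knockout alters that response, which is a different question from whether the knockout or diet alters expression.

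Total counts per library ran from 16324283 to 21501281. Hepatocyte genes dominated the libraries, with albumin (Alb) at a mean of 81839 CPM (read counts scaled to a common library size) over all libraries. Some libraries stood apart. A list score, the mean log2 CPM of a list's tested members in a library minus the mean over all libraries, was above 1.5 for neutrophil markers in Control_p53KO 1 (3.54), HFD_Rosa26KO 6 (2.68) and Control_p53KO 3 (1.62). The score of the acute phase response was above 1 in Control_Rosa26KO 1, Control_p53KO 1, HFD_p53KO 2 and HFD_p53KO 7, with the top score of 2.23 in Control_p53KO 1. Values without one or both sets stand beside the lists they moved most. The library names fall into 3 runs, each with libraries of every group, and interaction values within the runs are given in that order where a result turns on them.

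Trp53 (chr11:69580359-69591873, plus strand) was the targeted gene. Its counts had 31.6, 35.7 and 43.7 CPM in Control_Rosa26KO and 30.6, 37.2 and 43.8 CPM in HFD_Rosa26KO, where the 3 values are the lowest, the median and the highest library of a group. They had 17.2, 23.3 and 35.6 CPM in Control_p53KO and 19.6, 26.1 and 31.1 CPM in HFD_p53KO. Both p53KO groups thus had lower medians than both Rosa26KO groups, with transcripts still counted in every p53KO library, and the ranges overlapped. The interaction of Trp53 was 0.10 (SE 0.21, 95% interval -0.33 to 0.53, adjusted p = 0.879 by edgeR's quasi-likelihood test).

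No gene passed the interaction test. At an adjusted p under 0.05 (Benjamini-Hochberg over 14133 genes, edgeR), 0 of 14133 genes (0%) were called, and the smallest adjusted p was 0.462. At an unadjusted p under 0.05, 1221 genes (8.64%) were found, 632 positive (4.47%) and 589 negative (4.17%). In limma voom with quality weights 0 genes passed, and 924 had an unadjusted p under 0.05. In DESeq2 the interaction of 5 genes passed, and 1330 had an unadjusted p under 0.05. These were Rogdi and Zfp64 with positive values and the neutrophil granule genes Mpo, Ngp and Ltf with negative ones. Without the 3 libraries high in neutrophil markers, 496 genes (3.49%) had an unadjusted p under 0.05 in edgeR, 326 positive and 170 negative, and the smallest adjusted p was 0.9994. Without the 4 libraries high in acute phase genes the number was 819 (5.79%). These shares are the background where a list is given without those libraries. The 3 libraries high in neutrophil markers all lie in Control_p53KO and HFD_Rosa26KO, which enter the contrast with a minus sign. Leaving them out raises the interaction of genes high in them by construction, and leaves those groups with fewer libraries.

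The size of an interaction that these libraries could leave unseen differed between genes. The median interaction over all 14133 genes was -0.0075, with 6907 genes above 0 (48.9%) and 7226 below. The median standard error was 0.22, and the 95% interval reached a median of 0.45 to either side. For 9841 genes (69.6%) the whole interval lay between -1 and 1, so a difference of more than 2-fold between both diet responses lay outside it. For the remaining genes a difference of that size was inside the interval.

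Genes that passed the diet test in both genotypes all moved in the same direction. HFD changed 213 genes (1.51%) in Rosa26KO and 405 genes (2.87%) in p53KO at an adjusted p under 0.05 in edgeR. Of these, 71 were called in both, which is 33.3% of the Rosa26KO genes and 17.5% of the p53KO genes. Both diet effects share no library. Of the 71, 22 rose and 49 fell in both genotypes, and 0 of the 71 had an interaction at an unadjusted p under 0.05 (background 8.64%). Calls in both genotypes favour genes with like effects, so that count is a description. The interval of the interaction lay within 2-fold for 43 of the 71. The response was larger in size in Rosa26KO for 49 of them and in p53KO for 22, with median sizes of 1.14 and 1.02 on the log2 scale. Both counts of diet genes moved with single libraries. Leaving out 1 library gave 93 (without Control_Rosa26KO 4) to 509 (without Control_Rosa26KO 2) genes in Rosa26KO, and 173 (without HFD_p53KO 4) to 760 (without Control_p53KO 4) in p53KO, beyond 1.5 times for 10 and 8 of the 25 libraries. Over all tested genes, 8363 of 14133 (59.2%) had diet effects of the same sign, and across genes, which are not independent replicates, the effects had a Pearson r of 0.32 and a Spearman rho of 0.28.

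**Figure D1:**
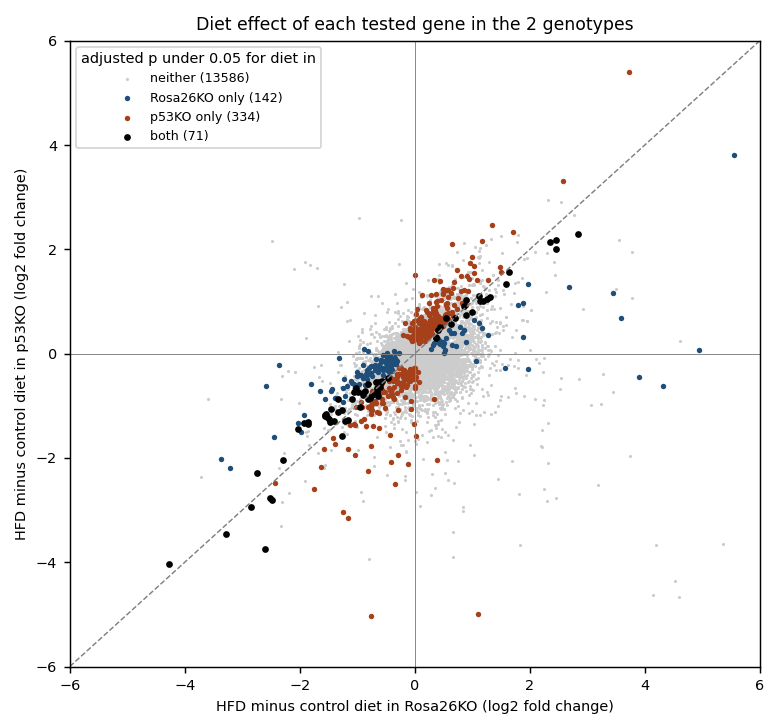
Diet effect of each tested gene (log2 fold change, HFD minus control diet) in Rosa26KO on the x axis and in p53KO on the y axis, with colours for genes past an adjusted p of 0.05 in neither, 1 or both genotypes and a dashed line where both effects are equal. The vertical distance from the dashed line is the interaction, and the 71 genes called in both genotypes lie along the line in the lower left and upper right.

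Among the genes that rose in both genotypes, Plin4, a lipid droplet coat protein, had 7.85, 15.6 and 20.4 CPM in Control_Rosa26KO and 44.5, 87.3 and 114 CPM in HFD_Rosa26KO. It had 3.82, 16.8 and 22.7 CPM in Control_p53KO and 42.2, 74.6 and 95.1 CPM in HFD_p53KO. No HFD library overlapped a control-diet library in either genotype. The log2 diet effects were 2.46 in Rosa26KO and 2.17 in p53KO, and the interaction was -0.29 (95% interval -1.19 to 0.62, adjusted p = 0.838, edgeR). Exons of Plin4 overlap Hdgfl2 in GENCODE M21, and 30 of the 73 named genes have exons that overlap another annotated gene. Among them are Fzr1 (Mfsd12), Nmt1 (Dcakd), Adora1 (Mybph), Sptb (Plekhg3), Agpat2 (Egfl7), Psme1 (Emc9), Slc13a2 (Slc13a2os), Rogdi (Gm42477) and Acss2 (Acss2os, Ggt7 and Gss). The strand of counting is not known, so reads of the overlapping partners cannot be told apart from theirs.

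Dio1, the deiodinase that turns thyroxine into active thyroid hormone, had 11.2, 21.1 and 38.7 CPM in Control_Rosa26KO and 73.5, 115 and 205 CPM in HFD_Rosa26KO. It had 10.5, 21.5 and 120.5 CPM in Control_p53KO and 91.8, 134 and 265 CPM in HFD_p53KO. The 120.5 CPM of Control_p53KO 1 lay inside the HFD range, while the other control-diet libraries lay below it. The interaction of Dio1 was -0.46 and became 0.38 without that library. Fam107b (interaction -0.20, interval -0.59 to 0.20) and the carnitine transporter gene Slc22a5 (0.14, interval -0.18 to 0.47) also rose in both genotypes and had intervals within 2-fold.

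Among the genes that fell in both genotypes, Ces2a, a carboxylesterase that hydrolyses lipids and drugs, had 255, 367 and 402 CPM in Control_Rosa26KO and 59.5, 91.6 and 104 CPM in HFD_Rosa26KO. It had 149, 296 and 419 CPM in Control_p53KO and 63.7, 111 and 137 CPM in HFD_p53KO. HFD lay below control diet without overlap in both genotypes. It fell by 2.03 in Rosa26KO and by 1.45 in p53KO on the log2 scale, and the interaction of 0.58 had an interval of -0.10 to 1.25. Epb41l5, a membrane scaffold protein of the band 4.1 family, had nearly equal responses, with diet effects of -0.60 and -0.58 and an interaction of 0.017 (interval -0.23 to 0.26). Gm2a, the lysosomal activator of ganglioside breakdown (-0.82 and -0.87), had an interaction of -0.046, also with an interval within 2-fold. Wider intervals belonged to Fabp5, a fatty acid binding protein (-0.25, -1.39 to 0.89), the citrate cycle acid transporter gene Slc13a2 (0.46, -0.77 to 1.70) and Adgrf1, an adhesion G protein-coupled receptor (-1.15, -2.70 to 0.41). Pdzk1ip1 fell in both as well, with an interaction of 0.39 (-0.27 to 1.04).

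**Figure D2:**
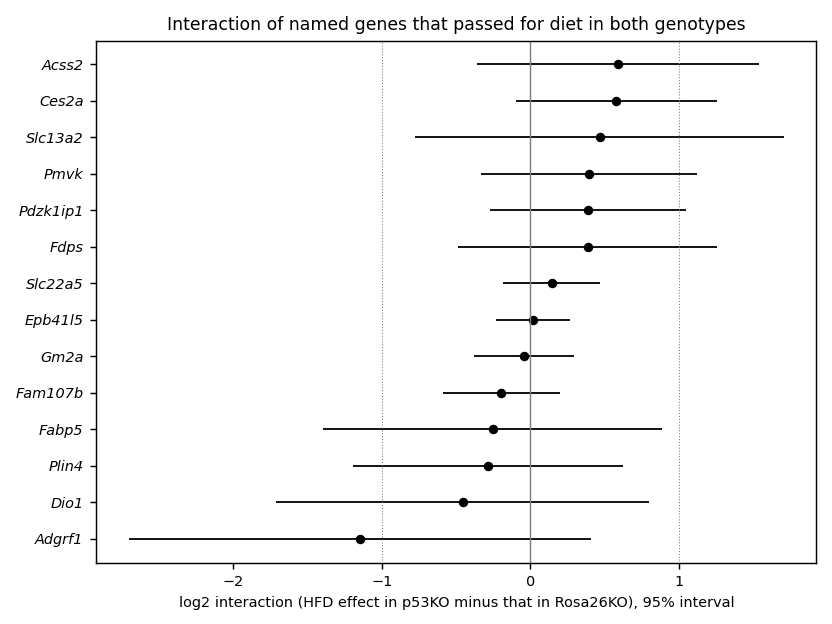
Interaction (log2 difference between the HFD responses of p53KO and Rosa26KO) with its 95% interval for the named genes called for diet in both genotypes. All of these intervals cross 0, and those of Epb41l5, Gm2a, Fam107b and Slc22a5 are the narrowest and lie inside the dotted lines at -1 and 1.

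A wider and less selective set did not exceed the background share of small p. When genes were chosen by the diet effect averaged over both genotypes, a contrast that does not favour unequal effects, 1372 genes (9.71%) were called and 113 of them had an interaction at an unadjusted p under 0.05. That is 8.24%, near the 8.64% of all genes. The response was larger in p53KO for 702 and larger in Rosa26KO for 670. Among the 656 that rose on HFD (4.64%), 405 rose further in p53KO and 251 in Rosa26KO. Among the 716 that fell (5.07%), 419 fell further in Rosa26KO and 297 in p53KO. The 405 and the 419 are genes with a positive interaction, which 48.9% of all genes had, so these diet genes leaned positive. In contrast, genes called in at least 1 genotype (547) included 166 with an unadjusted p under 0.05 (30.3%), a share that the choice itself raises because calls in 1 genotype favour unequal effects.

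Genes called for diet in a single genotype did not pass the interaction test either. Adora1, the adenosine A1 receptor, had 25.3, 26.8 and 35.5 CPM in Control_Rosa26KO and 20.9, 42.7 and 57.3 CPM in HFD_Rosa26KO. It had 17.9, 21.98 and 34.8 CPM in Control_p53KO and 43.1, 54.4 and 81.9 CPM in HFD_p53KO, with no overlap between diets in p53KO. It rose by 1.24 in p53KO (adjusted p = 0.00177, edgeR), against 0.50 in Rosa26KO (adjusted p = 0.184). The interaction was 0.74 (SE 0.27, unadjusted p = 0.0101, adjusted p = 0.56).

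Dusp3, a dual-specificity phosphatase that acts on MAP kinases, showed the opposite order. It had 46.6, 49.2 and 54.4 CPM in Control_Rosa26KO and 67.9, 71.8 and 78.8 CPM in HFD_Rosa26KO, without overlap. It had 44.4, 54.2 and 66.8 CPM in Control_p53KO and 51.1, 55.3 and 74.2 CPM in HFD_p53KO, which overlapped. It rose by 0.53 in Rosa26KO (adjusted p = 0.00441, edgeR) and its diet effect in p53KO was 0.074, with an interaction of -0.45 (SE 0.12, unadjusted p = 0.00138, adjusted p = 0.515). Its interaction within the 3 runs was -0.36, -0.51 and -0.42.

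The 8 genes of smallest p with a positive interaction were led by Rogdi (chr16:5008730-5013553, minus strand), a component of the machinery that assembles the vacuolar proton pump. Rogdi had 14.3, 16.01 and 18.1 CPM in Control_Rosa26KO and 13.3, 16.04 and 16.98 CPM in HFD_Rosa26KO, which overlapped over most of their range. It had 10.1, 12.4 and 14.1 CPM in Control_p53KO and 14.99, 18.5 and 21.3 CPM in HFD_p53KO, and every HFD_p53KO library lay above every Control_p53KO library. Its diet effect was -0.051 in Rosa26KO and 0.59 in p53KO, where it passed (adjusted p = 0.00226, edgeR). The interaction was 0.64 (SE 0.13, 95% interval 0.37 to 0.92), with an unadjusted p of 5.94e-05, an adjusted p of 0.462 in edgeR, 0.219 in limma voom and 0.0112 in DESeq2. Within the runs of library names it was 0.43, 0.75 and 0.76, and it ranged from 0.59 to 0.69 when each library was left out in turn.

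The bases upstream of Rogdi are shown because it had the smallest interaction p of the named genes in edgeR. The p53 binding motif could be looked for there. The 250 bases before its RefSeq start (chr16:5013554-5013803, minus strand, RefSeq on GRCm38.p6) are, 5′ to 3′, without capitals because no searched motif matched:
Rogdi: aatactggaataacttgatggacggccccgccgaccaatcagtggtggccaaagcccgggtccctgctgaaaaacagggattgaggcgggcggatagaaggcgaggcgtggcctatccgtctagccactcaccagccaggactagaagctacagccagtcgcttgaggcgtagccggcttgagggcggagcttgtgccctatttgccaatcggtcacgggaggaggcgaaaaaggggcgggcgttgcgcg
The p53 half-site, the decameric motif of which pairs form a p53 response element, was searched by its usual degenerate form on both strands and had no match in this window. Of 32851 RefSeq promoter windows of this length, 7.13% held a match.

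Zfp64, a zinc finger transcription factor, crossed over between the genotypes. It had 9.34, 10.8 and 13.1 CPM in Control_Rosa26KO and 7.95, 8.79 and 10.6 CPM in HFD_Rosa26KO. It had 8.04, 8.58 and 10.3 CPM in Control_p53KO and 9.11, 11.3 and 12.5 CPM in HFD_p53KO. HFD libraries were mostly lower in Rosa26KO and mostly higher in p53KO, with overlap in both. Neither diet effect passed (-0.32, adjusted p = 0.0872, and 0.32, adjusted p = 0.0601, edgeR). The interaction was 0.64 (SE 0.13, adjusted p = 0.462 in edgeR and 0.0173 in DESeq2), and within the runs it was 0.82, 0.36 and 0.67. Usp10, a deubiquitinase known to remove ubiquitin from p53 among other proteins, had 85.6, 95.8 and 107 CPM in Control_Rosa26KO and 65.5, 82.8 and 93.2 CPM in HFD_Rosa26KO. It had 59.4, 81.8 and 89.02 CPM in Control_p53KO and 86.4, 96.2 and 112 CPM in HFD_p53KO, where the ranges overlapped only at their edges. It rose in p53KO by 0.37 (adjusted p = 0.0405, edgeR) and its interaction was 0.57 (SE 0.14, adjusted p = 0.462), or 0.38 without the 3 libraries high in neutrophil markers.

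The other positive leaders had interactions from 0.33 to 0.58. They were Fzr1, an activator of the anaphase-promoting complex (0.40), the pseudokinase gene Nrbp1 (0.33), Wbp1, which encodes a ligand of WW domains (0.58), the N-myristoyltransferase gene Nmt1 (0.41) and the clathrin light chain gene Cltb (0.45). All had adjusted p-values of 0.462 in edgeR. In none of the 5 did the diet effect pass in either genotype, and in each the effect was negative in Rosa26KO and positive in p53KO. Nrbp1 had the tightest libraries, with 46.6, 48.5 and 56.7 CPM in Control_Rosa26KO and 40.2, 42.9 and 47.3 CPM in HFD_Rosa26KO. It had 41.2, 44.2 and 47.1 CPM in Control_p53KO and 44.4, 48.1 and 54.3 CPM in HFD_p53KO.

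**Figure D3:**
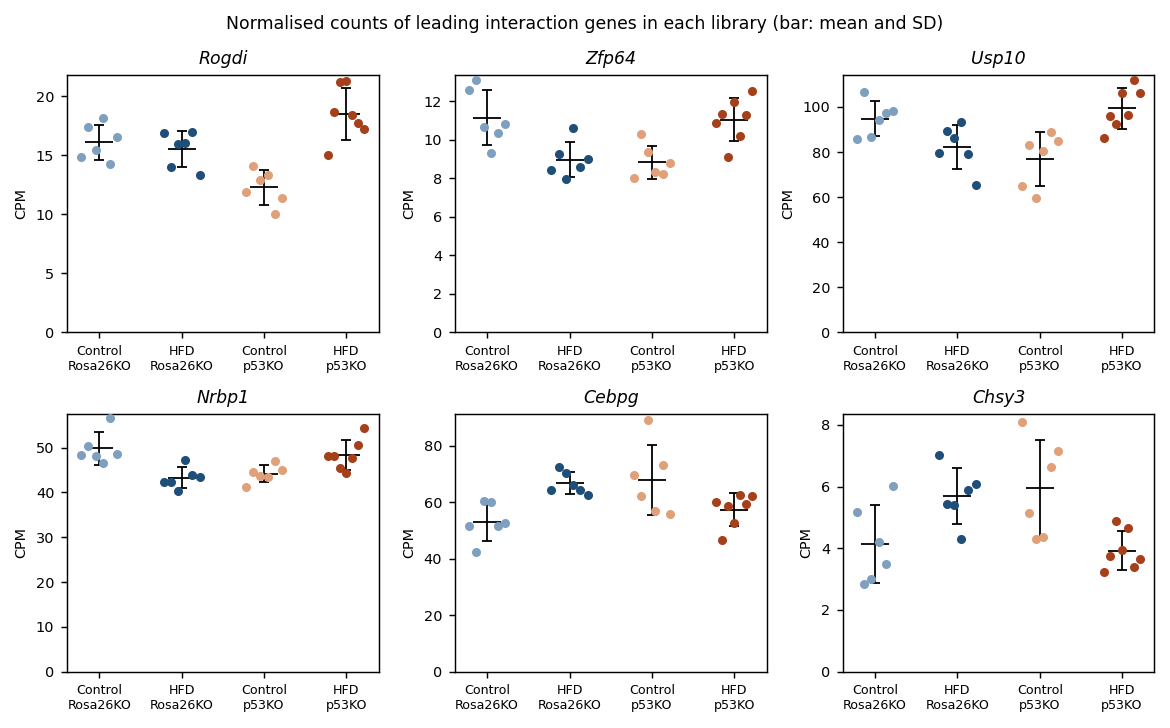
Normalised counts (CPM, y axis from 0) of 6 leading genes in each library by group, with the mean and SD as bars. Rogdi is the only 1 of the 6 in which HFD_p53KO lies wholly above Control_p53KO, and Cebpg and Chsy3 show the reverse order, HFD above control diet in Rosa26KO and below it in p53KO by their means.

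Outside the blood cell genes, the leading negative interactions were those of Chsy3 and Cebpg. Cebpg encodes a bZIP partner of C/EBP and ATF4 factors and had 42.2, 52.2 and 60.5 CPM in Control_Rosa26KO and 62.6, 65.2 and 72.6 CPM in HFD_Rosa26KO, with every HFD library above every control-diet library. It had 55.7, 66.1 and 88.97 CPM in Control_p53KO and 46.5, 59.3 and 62.4 CPM in HFD_p53KO, which overlapped. The interaction was -0.57 (SE 0.14, adjusted p = 0.462, edgeR). Chsy3, a chondroitin sulfate synthase, had 2.85, 3.84 and 6.02 CPM in Control_Rosa26KO and 4.29, 5.67 and 7.04 CPM in HFD_Rosa26KO. It had 4.29, 5.89 and 8.098 CPM in Control_p53KO and 3.22, 3.74 and 4.899 CPM in HFD_p53KO, and its interaction was -1.06 (SE 0.26, adjusted p = 0.462). Without the 3 libraries high in neutrophil markers the values were -0.46 for Cebpg and -1.02 for Chsy3.

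Neutrophil granule genes had strongly negative values, with the highest levels in a few libraries, and the value of Ngp was the lowest of all 14133 genes. Mpo, the myeloperoxidase of primary granules, had 0.06098, 0.1497 and 0.552 CPM in Control_Rosa26KO and 0.358, 1.26 and 49.8 CPM in HFD_Rosa26KO. It had 0.168, 0.554 and 38.7 CPM in Control_p53KO and 0.0446, 0.555 and 1.44 CPM in HFD_p53KO. The highest value on HFD in Rosa26KO was that of HFD_Rosa26KO 6 and the highest on control diet in p53KO that of Control_p53KO 1, while the medians of all groups were at or below 1.26 CPM. The interaction was -9.02 (SE 1.96, adjusted p = 0.462 in edgeR and 0.000603 in DESeq2), and -1.67 without the 3 libraries high in neutrophil markers.

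Ngp, the neutrophilic granule protein, had 0.0553, 0.5896 and 2.595 CPM in Control_Rosa26KO and 0.834, 3.43 and 109.7 CPM in HFD_Rosa26KO. It had 0.168, 0.543 and 138 CPM in Control_p53KO and 0, 0.617 and 2.67 CPM in HFD_p53KO. The same 2 libraries held the highest values. Within the runs the interaction of Ngp was -4.88, -4.50 and -4.72, as differences of mean log2 CPM. Each run holds 1 of the 3 libraries high in neutrophil markers, so the runs are no separate support. In order these are Control_p53KO 1, Control_p53KO 3 and HFD_Rosa26KO 6. With any 1 library left out, the interaction was at or below -6.32 for Ngp, -5.92 for Mpo (without HFD_Rosa26KO 6), -6.24 for Camp, the cathelicidin gene, and -5.68 for Ltf (both without Control_p53KO 1). The interaction of Ngp, -9.26 (SE 2.13), became -0.45 without the 3 libraries high in neutrophil markers, which were picked by the score of the list that holds these genes. In the same setting that of Camp went from -8.88 to -0.87, and that of Ltf, lactoferrin, went from -8.77 to 0.016. Chil3, a chitinase-like protein of myeloid cells, went from -5.71 to -0.29, and to -2.50 without Control_p53KO 1 alone. In edgeR the adjusted p of these genes was 0.462 with all libraries, or 0.49 for Chil3, and 0.9994 without the 3 libraries.

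Ngp and Ltf lie on chromosome 9, and their upstream bases are shown because both genes had their high values in the same libraries and both windows hold a match to a C/EBP-type motif (TTGCNNAA, or TTNNGCAA on the other strand), the kind bound by the factors that drive granule genes. The RefSeq windows (GRCm38.p6) of 250 bases before the start were searched, and the bases that GENCODE M21 places inside the gene are left out of the print. Capitals mark the match, and the sequences run 5′ to 3′ from chr9:110419558-110419746, plus strand and chr9:111019042-111019270, plus strand:
Ngp: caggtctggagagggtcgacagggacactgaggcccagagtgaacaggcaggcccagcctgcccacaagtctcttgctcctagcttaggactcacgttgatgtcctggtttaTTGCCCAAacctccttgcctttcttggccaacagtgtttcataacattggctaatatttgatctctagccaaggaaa
Ltf: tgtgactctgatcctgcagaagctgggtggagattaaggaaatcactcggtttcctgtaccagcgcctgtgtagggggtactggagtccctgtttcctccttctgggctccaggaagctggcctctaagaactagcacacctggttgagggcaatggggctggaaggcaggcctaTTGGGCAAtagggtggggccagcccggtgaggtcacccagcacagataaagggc
The match in Ngp begins 138 bases before the RefSeq start, with a further match 11 bases before it in the part left out, and the match in Ltf begins 75 bases before it. Of the 32851 windows, 9.56% hold a C/EBP-type match. The windows of Mpo, Rogdi and Zfp64 hold none, and those of all 5 genes hold no p53 half-site. A match is a description of the letters and no evidence of binding.

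The neutrophil list as a whole followed the same libraries. Of 24 tested markers (28 in the list), 14 had an unadjusted p under 0.05, all negative (58.3%, against 8.64% of all genes), and 0 passed after adjustment. The median interaction was -2.47, against -0.0075 over all genes. Without the 3 libraries, which were picked by this same score, 1 of 24 had such a p (background 3.49%) and the median was -0.025. The list score ran from -1.60, -0.80 and 0.20 in Control_Rosa26KO and -0.78, 0.39 and 2.68 in HFD_Rosa26KO (lowest, median, highest). It was -1.56, -0.30 and 3.54 in Control_p53KO and -1.17, -0.34 and 0.99 in HFD_p53KO, so all groups overlapped. In bulk tissue, fewer cells of a type and less RNA per cell cannot be told apart.

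Platelet and megakaryocyte genes followed a single library more closely. Ppbp, the platelet basic protein, had 0.774, 1.104 and 1.8005 CPM in Control_Rosa26KO and 1.19, 2.16 and 130.2 CPM in HFD_Rosa26KO. It had 0.914, 1.78 and 5.17 CPM in Control_p53KO and 0.535, 1.42 and 3.17 CPM in HFD_p53KO. HFD_Rosa26KO 6 alone held the high value, and the interaction of -4.95 (SE 1.31, adjusted p = 0.49, edgeR) became -2.11 without it. Tubb1, the platelet tubulin (-4.34, or -2.31 without that library), and Itgb3, the platelet integrin beta subunit (-2.35, or -1.12), moved with it. Of 15 tested genes of the list, 10 were negative and 0 positive at an unadjusted p under 0.05 (66.7%, against 8.64% of all genes). The median was -2.32, or -0.79 without HFD_Rosa26KO 6. Without the 3 libraries high in neutrophil markers 2 of 15 genes had such a p (background 3.49%), with a median of -0.55.

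Erythroid genes had high values in 2 HFD_Rosa26KO libraries, with scores of 2.09 in HFD_Rosa26KO 1 and 2.22 in HFD_Rosa26KO 6. Slc4a1, the band 3 anion exchanger of red cells, had 0.0552, 0.325 and 0.482 CPM in Control_Rosa26KO and 0.238, 3.25 and 30.5 CPM in HFD_Rosa26KO. It had 0.1002, 0.226 and 6.07 CPM in Control_p53KO and 0.0891, 0.741 and 5.68 CPM in HFD_p53KO. Its interaction was -4.88 (SE 1.62, adjusted p = 0.56, edgeR), and those of the membrane skeleton genes Ank1 and Sptb were -4.18 and -2.45. In the list, 7 of 16 tested genes were negative at an unadjusted p under 0.05 (43.8%, against 8.64% of all genes). The median was -1.27, or -0.71 without HFD_Rosa26KO 1. In the absence of the 3 libraries high in neutrophil markers 1 of 15 was negative at such a p (background 3.49%), with a median of -0.51.

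**Figure D4:**
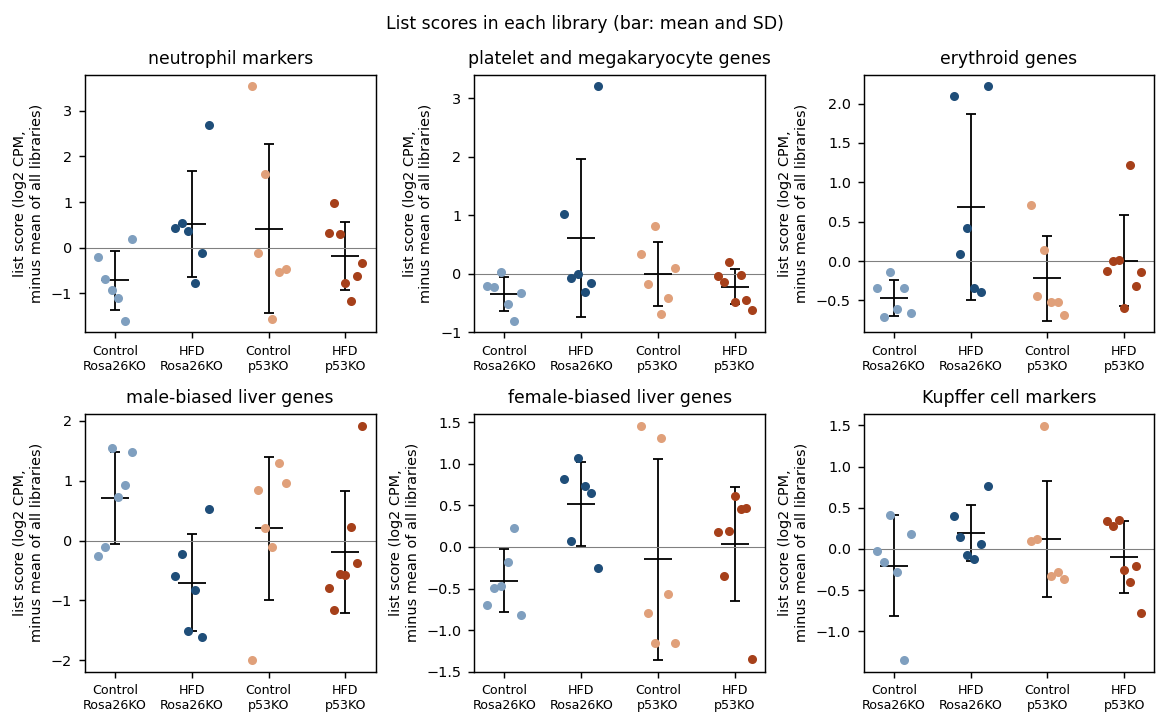
List scores (mean log2 CPM of the tested members minus the mean of all libraries, y axis) in each library by group, with the mean and SD as bars. Control_p53KO 1 and HFD_Rosa26KO 6 have the highest neutrophil scores, HFD_Rosa26KO 6 the highest platelet score and Control_p53KO 3 the highest Kupffer score. Control_p53KO 1 has the lowest male-biased score.

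Kupffer cells are the resident macrophages of the liver. Their marker Clec4f had 49.6, 111 and 239 CPM in Control_Rosa26KO and 117, 144 and 237 CPM in HFD_Rosa26KO. It had 93.1, 118 and 733 CPM in Control_p53KO and 61.95, 75.99 and 122 CPM in HFD_p53KO, with 733 CPM in Control_p53KO 3. Its interaction was -1.75 and became -0.81 without that library. Vsig4, a complement receptor (-1.90, or -0.68), and Folr2, a folate receptor (-1.49, or -0.69), behaved alike in that library. Control_p53KO 3 lies in the second run. Within the runs the interaction was -1.58, -1.31 and -1.28 for Clec4f, -1.33, -1.03 and -1.38 for Vsig4 and -1.05, -1.14 and -0.91 for Folr2. Of 24 markers, 5 were negative at an unadjusted p under 0.05 (20.8%, against 8.64% of all genes). Without the 3 libraries high in neutrophil markers 0 were negative at such a p (background 3.49%), and the median went from -0.73 to 0.012. Without Control_p53KO 3 alone it was -0.24. The list score was -0.62 as an interaction and -0.17, -0.37 and -1.13 within the runs.

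Stellate cell markers held more of their negative values. Reln, which encodes the secreted protein reelin, had 39.3, 46.5 and 81.4 CPM in Control_Rosa26KO and 42.5, 50.5 and 65.4 CPM in HFD_Rosa26KO. It had 34.4, 64.3 and 103 CPM in Control_p53KO and 14.1, 29.2 and 55.9 CPM in HFD_p53KO, with lower values on HFD in p53KO and some overlap. It fell by 1.06 in p53KO (adjusted p = 0.0178, edgeR), against a diet effect of -0.071 in Rosa26KO, and its interaction was -0.99 (SE 0.34, adjusted p = 0.56). The collectin gene Colec10 (-1.03) had a smaller unadjusted p than Reln. Bmp5 (-0.66), a bone morphogenetic protein, fell by 0.66 in p53KO (adjusted p = 0.044, edgeR). In the list 5 of 25 were negative at an unadjusted p under 0.05 (20%, against 8.64% of all genes). The median was -0.48, or -0.32 without Control_p53KO 3. Without the 3 libraries high in neutrophil markers 4 of 25 were negative at such a p (background 3.49%), with a median of -0.21. The lowest stellate score, -1.52, was that of HFD_p53KO 7, and the score interaction of -0.54 became -0.34 without it. Within the runs of library names it was 0.28, -0.34 and -1.40, so the sign did not hold in the first run.

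Sinusoidal endothelial markers were alike, with 4 of 30 negative at an unadjusted p under 0.05 (13.3%, against 8.64% of all genes) and a median of -0.34. The lowest score, -1.13, was again that of HFD_p53KO 7, and the score interaction of -0.37 became -0.23 without it. Within the runs it was -0.29, 0.023 and -0.74, so the sign did not hold in the second. The scavenger receptor genes Stab2 (-0.94, SE 0.35) and Mrc1 (-1.07, SE 0.42) were among the 4. Stab2 became -0.68 without HFD_Rosa26KO 6, and Mrc1 became -0.71 without Control_p53KO 3.

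Genes with sex-biased expression in liver, which growth hormone pulses control, had opposite signs of the interaction. The labels give male animals throughout. In the growth hormone axis list, 3 of 22 tested genes were negative and 0 positive at an unadjusted p under 0.05. That is 13.6%, against 8.64% of all genes, and the median was -0.19, with 16 below 0 and 6 above. The list score was -0.38 as an interaction and -0.42, -0.33 and -0.43 within the runs. It was -0.30 without the 3 libraries high in neutrophil markers and -0.43 without the 4 high in acute phase genes. Cyp4a12a, a male-biased fatty acid hydroxylase, had 54.2, 219.7 and 267 CPM in Control_Rosa26KO and 23.5, 40.9 and 115 CPM in HFD_Rosa26KO. It had 0.694, 120.05 and 218 CPM in Control_p53KO and 87.6, 135 and 267 CPM in HFD_p53KO, the 0.694 CPM being that of Control_p53KO 1. Its near copy Cyp4a12b had 36.8, 116 and 157 CPM in Control_Rosa26KO and 8.79, 18.4 and 41.04 CPM in HFD_Rosa26KO, and fell by 2.36 on HFD in Rosa26KO (adjusted p = 0.0303, edgeR) against a diet effect of -0.22 in p53KO. The interactions were 2.21 (SE 0.83) and 2.15 (SE 0.74, adjusted p = 0.56, edgeR), and 1.94 and 1.88 without Control_p53KO 1. Within the runs they were 4.5, 2.6 and 2.4 for Cyp4a12a and 4.4, 2.8 and 1.8 for Cyp4a12b. Control_p53KO 1 lies in the first run. Reads of these near-identical genes may be split between them by the authors' counting.

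Cyp2d9, a male-biased steroid hydroxylase, had 269.7, 725 and 1016 CPM in Control_Rosa26KO and 272, 324 and 528 CPM in HFD_Rosa26KO. It had 251, 553 and 839.8 CPM in Control_p53KO and 426, 655 and 1059.5 CPM in HFD_p53KO. Its interaction was 1.22 (SE 0.41, adjusted p = 0.56, edgeR) and 0.12, 1.54 and 1.71 within the runs. Of 23 tested male-biased genes, 6 were positive and 0 negative at an unadjusted p under 0.05 (26.1%, against 8.64% of all genes). The median was 0.85, with 20 above 0, as were 48.9% of all genes. The median became 0.24 without HFD_p53KO 7 alone. The list score was 1.03 as an interaction and -0.18, 1.68 and 1.20 within the runs, so the sign did not hold in the first. The other 3 of the 6 were Gstp1, Mup7 and Mup12, and the Mup genes form a family of near-identical copies. The median was 0.84 without the 3 libraries high in neutrophil markers and 0.36 without the 4 high in acute phase genes. In these settings 6 and 4 of 23 genes had an unadjusted p under 0.05 (backgrounds of 3.49% and 5.79%). Median diet effects were -1.19 in Rosa26KO and -0.083 in p53KO.

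The female-biased list went the other way. Of 22 tested genes, 8 were negative and 0 positive at an unadjusted p under 0.05 (36.4%, against 8.64% of all genes). The median was -1.28. The median became -0.30 without Control_p53KO 4 alone and -0.57 without Control_p53KO 1 alone. Cyp17a1, a steroid hydroxylase, had 6.41, 11.4 and 33.4 CPM in Control_Rosa26KO and 11.5, 28 and 103 CPM in HFD_Rosa26KO. It had 2.95, 11.5 and 239 CPM in Control_p53KO and 6.05, 7.63 and 22.1 CPM in HFD_p53KO. The 239 CPM was that of Control_p53KO 1, and the interaction of -3.85 (SE 1.08, adjusted p = 0.515, edgeR) became -2.12 without that library.

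The sulfotransferase genes Sult2a1 and Sult1e1 showed this most sharply. Sult1e1 had 0, 0.162 and 0.535 CPM in Control_Rosa26KO and 0.0518, 0.259 and 1.16 CPM in HFD_Rosa26KO. It had 0, 0.242 and 113 CPM in Control_p53KO and 0.185, 0.407 and 1.23 CPM in HFD_p53KO. It was called lower on HFD in p53KO (-4.98, adjusted p = 0.0388, edgeR) with a single high library, Control_p53KO 1, behind the difference. Its interaction went from -6.09 to 0.28 without that library, and that of Sult2a1 from -7.87 to -0.58. Without the 4 libraries high in acute phase genes, which include Control_p53KO 1, the female-biased median was -0.23. In that setting 2 of 22 genes had an unadjusted p under 0.05 (background 5.79%). Without the 3 high in neutrophil markers the median was -0.82, also with 2 genes at that p (background 3.49%). The score of this list was -0.74 as an interaction and -1.46, -0.90 and 0.22 within the runs.

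Pericentral hepatocyte genes respond to Wnt signals from the central vein. Of 23, 3 were positive and 1 negative at an unadjusted p under 0.05 (17.4%, against 8.64% of all genes). The median was 0.32. Rnf43, a Wnt target that dampens Wnt signalling, had 21.3, 25.2 and 47.5 CPM in Control_Rosa26KO and 16.3, 23.8 and 26.2 CPM in HFD_Rosa26KO. It had 12.6, 21.6 and 27.6 CPM in Control_p53KO and 21.3, 28.5 and 42.8 CPM in HFD_p53KO. Its interaction was 0.92 (SE 0.31, adjusted p = 0.56, edgeR), and that of Axin2, a Wnt target with the same role, was 0.59 (SE 0.22). Both were positive within each run (0.56, 0.39 and 1.58 for Rnf43, 0.39, 0.43 and 0.72 for Axin2). The list score was 0.30 as an interaction and -0.44, 0.048 and 1.10 within the runs, negative in the first. Without the 3 libraries high in neutrophil markers 2 of 23 genes had an unadjusted p under 0.05 (background 3.49%), and the median was 0.15. Slc1a4, a neutral amino acid transporter gene, was the negative member (-1.75, SE 0.71).

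Among biliary and oncofetal genes, the negative values of H19 and Prom1 rested on Control_p53KO 1. H19, a fetal long noncoding RNA, had 0.387, 0.711 and 2.27 CPM in Control_Rosa26KO and 2.74, 7.46 and 17.9 CPM in HFD_Rosa26KO, without overlap. It had 0.343, 1.55 and 89.3 CPM in Control_p53KO and 1.42, 5.04 and 16.6 CPM in HFD_p53KO, with 89.3 CPM in Control_p53KO 1. Its interaction was -4.06 (SE 1.41, adjusted p = 0.56, edgeR) and -0.43 without that library. The stem cell surface gene Prom1 went from -2.93 to -0.22, and Cd24a from -1.33 to -1.03. Without HFD_Rosa26KO 6 alone Cd24a was -0.98. Of 22 tested genes, 3 were negative and 1 positive at an unadjusted p under 0.05 (18.2%, against 8.64% of all genes). Without either set of libraries 0 had such a p. The median of -0.25 became 0.024 without Control_p53KO 1 alone. The list score was -0.36 as an interaction and 0.31, -0.024 and -1.07 within the runs, positive in the first.

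**Figure D5:**
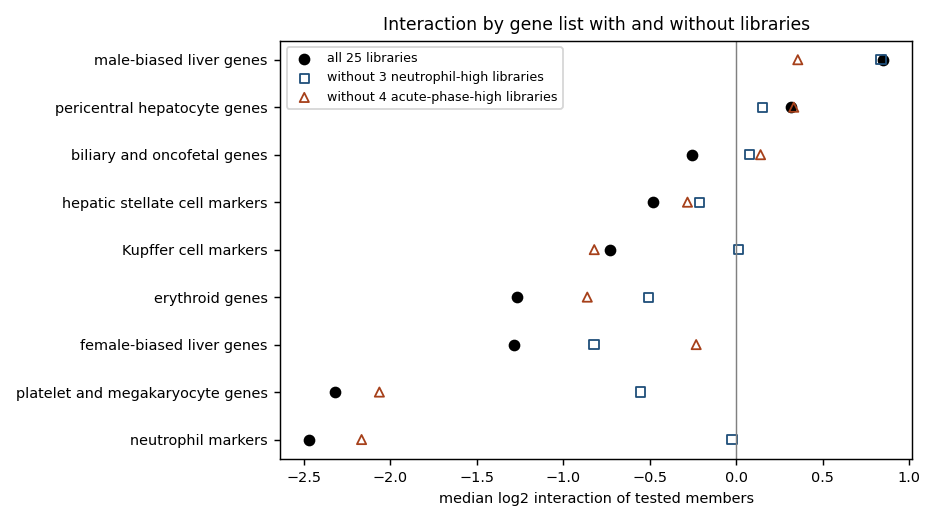
Median interaction (log2) of the tested members of the 9 lists with the highest shares of small p, with all 25 libraries and without the libraries high in neutrophil markers or in acute phase genes. The neutrophil, platelet, erythroid and Kupffer medians lie closer to 0 without the 3 neutrophil-high libraries, and the sex-biased medians lie closer to 0 without the 4 acute-phase-high ones.

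Genes of the p53 pathway itself had few small p-values. Of 41 tested p53 targets, 1 was positive at an unadjusted p under 0.05 (2.44%), 26 were above 0 and the median was 0.12. Cdkn1a, the cell cycle inhibitor p21 and the best known target, had 16.2, 28.2 and 88.9 CPM in Control_Rosa26KO and 30.04, 53.03 and 93.2 CPM in HFD_Rosa26KO. It had 3.54, 11.9 and 25.6 CPM in Control_p53KO and 7.52, 37.1 and 89.7 CPM in HFD_p53KO. The ranges overlapped between diets in both genotypes. The diet effects were 0.65 and 1.68, neither past the threshold, and the interaction of 1.03 had an interval of -0.49 to 2.54 (adjusted p = 0.67, edgeR). It became 0.52 without Control_Rosa26KO 2. Within the runs it was 2.50, 0.77 and -0.20.

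Mdm2, the ubiquitin ligase that degrades p53, varied far less, with 29.7, 34.5 and 36.8 CPM in Control_Rosa26KO and 30.9, 39.1 and 43.1 CPM in HFD_Rosa26KO. It had 28.9, 30.5 and 33.7 CPM in Control_p53KO and 32.2, 37.5 and 42.7 CPM in HFD_p53KO. Its interaction was 0.10 (95% interval -0.13 to 0.33, adjusted p = 0.774). Gadd45a, a stress gene of DNA repair, was the target at an unadjusted p under 0.05 (0.97, SE 0.39, adjusted p = 0.56), and Tigar, which limits glycolysis, had 0.28 (SE 0.14). Of 10 p53 regulators, 0 had an unadjusted p under 0.05.

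Members of the lipid synthesis lists that passed for diet were lower on HFD in both genotypes. For fatty acid synthesis the median diet effect over 22 genes was -0.67 in Rosa26KO and -0.65 in p53KO, with 5 genes called lower in each (backgrounds of 1.06% and 1.25%), and the median interaction was 0.072 with 0 genes at an unadjusted p under 0.05. The list score was 0.15 as an interaction and -0.27 without the 3 libraries high in neutrophil markers. Acss2, which makes acetyl-CoA from acetate, had 375, 585 and 789 CPM in Control_Rosa26KO and 114, 139 and 216 CPM in HFD_Rosa26KO. It had 138, 365 and 672 CPM in Control_p53KO and 71.3, 159 and 266 CPM in HFD_p53KO. It fell by 1.93 in Rosa26KO and 1.34 in p53KO, and the interaction was 0.59 (interval -0.36 to 1.54). Slc25a1, the mitochondrial citrate carrier, fell in Rosa26KO by 0.63 (adjusted p = 0.0348, edgeR) and had an interaction of 0.41 (SE 0.21). Agpat2, an acyltransferase of triglyceride synthesis, had 0.37 (SE 0.22).

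Cholesterol genes leaned one way without passing. Of 24 genes, 22 had a positive interaction (48.9% of all genes did) and 0 an unadjusted p under 0.05, with a median of 0.28, and the median diet effects were -0.93 and -0.55 with 4 called lower in each genotype (backgrounds of 1.06% and 1.25%). Pmvk, phosphomevalonate kinase, had 75.02, 95.9 and 128 CPM in Control_Rosa26KO and 21.2, 35.3 and 44.3 CPM in HFD_Rosa26KO, without overlap. It had 47.5, 70.5 and 124 CPM in Control_p53KO and 18.3, 27.3 and 53.4 CPM in HFD_p53KO. Its interaction was 0.39 (interval -0.33 to 1.12). Values for Fdps, farnesyl diphosphate synthase (0.38, -0.49 to 1.26), and Mvd, which decarboxylates mevalonate diphosphate (0.76, -0.34 to 1.85), had intervals across 0. The list score as an interaction was 0.21, and within the runs it was -1.04, 0.42 and 0.98, negative in the first. It became 0.10 without the 3 libraries high in neutrophil markers and 0.048 without Control_p53KO 3 alone.

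Of 29 lipid droplet and uptake genes, 3 were positive at an unadjusted p under 0.05 (10.3%) and 0 negative, near the 8.64% of all genes in either direction. The list score was 0.21 as an interaction and -0.10 without the 3 libraries high in neutrophil markers. The 3 genes included the lipases Lipe (0.46, SE 0.16) and Pnpla2 (0.34, SE 0.15).

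Type I interferon-stimulated genes leaned positive. Of 40 genes, 37 had a positive interaction, which 48.9% of all genes had, and the median was 0.46. An unadjusted p under 0.05 was found for 3 (7.50%, against 8.64% of all genes). HFD raised 13 of the 40 in p53KO and 2 in Rosa26KO at an adjusted p under 0.05 in edgeR (backgrounds of 1.62% and 0.446%). Median diet effects were 1.15 in p53KO and 0.61 in Rosa26KO. Ifi35, an interferon-induced leucine zipper protein, had 25.1, 35.1 and 42.6 CPM in Control_Rosa26KO and 27.5, 38.4 and 41.5 CPM in HFD_Rosa26KO. It had 23.9, 27.96 and 43.6 CPM in Control_p53KO and 37.4, 45.001 and 53.5 CPM in HFD_p53KO. It rose by 0.59 in p53KO (adjusted p = 0.0252, edgeR) against 0.079 in Rosa26KO, with an interaction of 0.51 (SE 0.20, adjusted p = 0.56). Bst2, the virus-tethering protein tetherin, had an interaction of 0.75 (SE 0.33). The list score was 0.43 as an interaction and 1.51, 0.093 and -0.11 within the runs, highest in the first run, and it became 0.19 without Control_Rosa26KO 2.

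Of 24 genes of MHC class I and antigen processing, 4 were positive and 0 negative at an unadjusted p under 0.05. That is 16.7%, against 8.64% of all genes, and the median was 0.18. Psme1, a subunit of the proteasome activator PA28, had an interaction of 0.34 (SE 0.13), and the class I gene H2-Q7, which has close paralogs, had 0.46 (SE 0.21). H2-Q7 fell on HFD in Rosa26KO (-0.59, adjusted p = 0.0441, edgeR), with -0.13 in p53KO.

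Proliferation genes leaned negative, with 34 of 37 below 0 and 3 above, against 48.9% of all genes above 0. The median was -0.44, and 0 had an unadjusted p under 0.05, which 8.64% of all genes had. Mki67, a marker of cycling cells, had 2.07, 4.29 and 14.9 CPM in Control_Rosa26KO and 10.1, 14.4 and 19.5 CPM in HFD_Rosa26KO. It had 1.94, 7.78 and 39.3 CPM in Control_p53KO and 2.47, 8.62 and 20.6 CPM in HFD_p53KO. Its interaction was -1.58 (interval -3.35 to 0.18) and that of the replication licensing gene Cdc6 was -1.24 (interval -2.68 to 0.20). The list score was -0.75 as an interaction, 0.40, -0.73 and -1.51 within the runs and -0.21 without the 3 libraries high in neutrophil markers. Genes of oxidative phosphorylation (42 tested, median 0.11), cytosolic ribosomal proteins (47, 0.040), the circadian clock (22, 0.029), bile acid synthesis (24, 0.12) and apolipoproteins (22, 0.10) had 0 members at an unadjusted p under 0.05.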

How the data were processed

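The table of raw read counts per gene was deposited by the authors for all 25 libraries. Per the submitters' processing notes, STAR aligned the reads to the mouse build GRCm38 (mm10) and HOMER counted them, and per the labels' protocols the reads were paired with 75 bases each. Not given in the sources used here are versions, annotation, strand and the handling of multiply matching reads.

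Genes were kept by filterByExpr (minimum count 10, minimum total 15). Libraries were scaled by TMM, and a quasi-likelihood model with robust dispersion and 1 mean per group was fitted in edgeR 4.0.16 to all 25 libraries. The interaction and each diet effect were two-sided contrasts, adjusted by Benjamini-Hochberg over 14133 genes, with a threshold of 0.05. Log2 CPM used a prior count of 2. Library totals were 16324283 to 21501281, and the median standard error of the log2 interaction, which also holds the spread between libraries, was 0.22. No 2 libraries of a group agreed within sampling noise.

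The comparison and the 43 gene lists were chosen with earlier results of these data known. Named were Trp53, Cdkn1a and Mdm2, the 8 genes of smallest p in each direction of the interaction (mean of at least 1 CPM, model and clone names passed over), the 5 diet genes of smallest p in each direction and genotype, up to 3 members of each list whose share of small p was at least 2 times the background, and further list members as examples. Some genes that this rule takes are not reported here. Lists were described by counts and medians, without a test. Gstp1, Mup7, Mup12 and Alb were named after their values were seen.

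Alternatives were RLE scaling, no filter, DESeq2 1.42.0, limma 3.58.1 voom with quality weights, no robust option, a replicate block, a term for the 3 runs of library names, and each library left out in turn. Chosen after seeing the data were the removal of libraries high in neutrophil or acute phase genes and the genes of the averaged diet effect. The procedure was tested on simulated data. Positions are from GENCODE M21 and promoters from RefSeq (GRCm38.p6). R 4.3.3, Python 3.11.15, numpy 2.4.6 and matplotlib 3.10.9 were used. Nothing was left out of the reported fit.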

Additional observations from a re-analysis of the deposited data

Results flagged for a closer look

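A library was singled out where the highest or lowest of a group of 4 to 10 lay farther from its nearest neighbour than Dixon's 95% critical value allows. Over 112 groups tested (list scores and log2 CPM of leading genes) this happened 7 times, and chance alone flags about 1 in 20 groups. HFD_Rosa26KO 6 held 3 of the 7, with log2 CPM of 5.64 for Mpo, 6.78 for Ngp and 4.66 for Chil3, all genes of neutrophil granules or myeloid cells. HFD_Rosa26KO 4 had the highest value of its group for Wbp1, a log2 CPM of 5.06. Among list scores, relative to the mean of all libraries, HFD_p53KO 5 was highest of its group for erythroid genes (1.22), Control_p53KO 3 was highest for Kupffer cell markers (1.497), and HFD_p53KO 7 was lowest for hepatic stellate cell markers (-1.52). The part of tissue composition or sampling in these values was not tested.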

How the results depend on the processing

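The interaction count was 0 in edgeR under every alternative run (RLE scaling, no filter, no robust option, run term, replicate block, each set of libraries left out and each of 25 libraries left out) and in limma voom, and 5 in DESeq2. Leaving out 1 library left 885 to 1836 genes at an unadjusted p under 0.05. The median interaction over all genes was -0.013 with RLE scaling.

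Diet genes in Rosa26KO numbered 213, and 615 with DESeq2, 3038 with voom, 549 with the replicate block, 442 with the run term, 538 without the 3 libraries high in neutrophil markers, and 93 to 509 with 1 library left out. Diet genes in p53KO numbered 405, and 907 with DESeq2, 2189 with voom, 785 with the replicate block, 633 with the run term, and 173 to 760 with 1 library left out. Same-numbered libraries were not paired: 17 of 36 pairs had a correlation of deviations over 0.1 (range -0.40 to 0.60), and 4 of 24 libraries correlated best with their own number. With the block the interaction count stayed at 0, with 1164 genes at an unadjusted p under 0.05.

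Of 73 named genes, 65 kept their sign in all 34 alternatives. With voom, Dio1 became 0.065, Epb41l5 -0.078, Gm2a 0.077 and Fdps -0.057. With the replicate block Epb41l5 became -0.0042. Without the 3 libraries high in neutrophil markers, Ltf became 0.016, Dio1 0.28, Epb41l5 -0.080, Gm2a 0.041 and Sult1e1 0.27, and the medians became 0.012 for Kupffer and 0.077 for biliary and oncofetal genes. Without the 4 high in acute phase genes, Dio1 became 0.28, Epb41l5 -0.038, Gm2a 0.10, Slc13a2 -0.12, Sult1e1 0.09, H19 0.018 and the biliary and oncofetal median 0.14. With 1 library left out, values ranged from -0.67 to 0.38 for Dio1, -0.039 to 0.070 for Epb41l5, -0.11 to 0.037 for Gm2a, -6.76 to 0.28 for Sult1e1 and -0.56 to 0.024 for the biliary and oncofetal median. The causes were not tested. What sequencing depth limits was not tested.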
